A study of Homo sapiens with 9 samples.

Results

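The genes examined were 44 genes of mitosis and of G2/M, the stretch of the cell cycle from the end of DNA replication to cell division, listed by name for their roles in cell division, with no threshold on a measured value. Of these, 43 were rows of both count tables of the series, which hold 18970 gene symbols, and all 43 passed the filter on low values for newly made and for total RNA. KIF23 was not analysed here. The question was whether loss of the transcription factor SOX9 altered genes of proliferation in cranial neural crest cells, and whether the cultures agreed. The group showed little net shift. After 24h the median log2 fold change of the 43 genes was -0.00 in total reads and -0.04 in newly made reads. Over all genes tested it was 0.00 and 0.00. Single genes ran from -0.55 to 0.35 in total reads at 24h, with 23 of the 43 below 0. Rises and falls thus cancel in this median. Called in total reads at 24h were 6 of the 43 genes (14%), close to the 15% of all genes called there. INCENP and AURKB fell, and CDK1, CKS2, MAD2L1 and UBE2C rose. Of these 6 calls none held in the fit without the culture S9CC13_R6, where the changes of CKS2 and UBE2C turned below 0, and INCENP and CDK1 held in both fits that left out one of the other cultures.

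Entry into mitosis is driven by the kinase CDK1 bound to a B-type cyclin. The CDC25 phosphatases switch this kinase on, and Polo-like and Aurora kinases then build the spindle and mature its poles. The chromosomal passenger complex, made of the scaffold INCENP, the kinase AURKB, survivin (BIRC5) and borealin (CDCA8), corrects faulty attachments of chromosomes to the spindle and later guides cytokinesis. The spindle checkpoint (MAD2L1, BUB1, BUB1B, BUB3, TTK) holds back the anaphase-promoting complex until every chromosome is attached, and CDC20 and the ubiquitin-conjugating enzyme UBE2C then let cyclin B and securin (PTTG1) be destroyed. Transcripts of these genes are low in G1 and high in G2, so in a mixed culture their level depends on how many cells divide. In bulk libraries such as these, fewer cells in G2 and M and less RNA per cell cannot be told apart.

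The cells were cranial neural crest cells (CNCCs) at passage 4, grown from H9 cells, a widely used line of human embryonic stem cells. Both copies of SOX9 carried a degron tag (FKBP12-F36V with mNeonGreen and V5) in every sample, the 0h samples included, and the small molecule dTAGV-1 directs the tagged protein to destruction. The 9 samples were 3 cultures, S9CC13_R6, S9CC47_R5 and S9CC47_R6, each sampled after 0h, 3h or 24h with dTAGV-1 at 500 nM, with DMSO as the vehicle. The labels give a relative SOX9 protein level of 100% at 0h, falling to 0% in the 3h and the 24h samples. Each culture was 1 differentiation of 1 of 2 clones of the tagged line, and cultures of untagged cells given dTAGV-1 were not analysed here. In all samples 4-thiouridine (100 uM) was present for the last 2 h, so that newly made RNA could be read as T>C conversions in libraries of transcript 3′ ends (SLAM-seq). Total reads are all reads of a gene and T>C reads are those with a conversion. Libraries held 16955633 to 28782678 total reads and 3130673 to 5475800 T>C reads. Normalized reads below are counts divided by a size factor of the library, so a change shared by all RNA would not appear in them.

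Of the marker genes of cranial neural crest, 7 of 7 were above 1 CPM (counts per library brought to the same sum) in at least 3 libraries, and their summed level was 3364 to 3453 CPM at 0h, then 3766 to 4087 after 3h and 4577 to 4916 after 24h. SOX9 mRNA is in that sum and was itself at 735.7 to 782.6 CPM at 0h, then 1141 to 1472 after 3h and 1614 to 1862 after 24h. The degron removes protein and not mRNA, so the mRNA does not check the depletion. Markers of pluripotent cells summed to 281.5 to 414.4 CPM in the 9 libraries, with POU5F1 and NANOG at or near 0 and LIN28A carrying most of the sum, at 315.3 to 374.3 CPM at 0h and 241.3 to 263.5 at 24h. Neural progenitor markers stayed between 0.225 and 1.01 CPM, with PAX6, SOX1 and HES5 at or near 0. Schwann cell and melanocyte markers stayed between 2.69 and 7.26 CPM, with SOX10 at or near 0. The part of LIN28A-positive or other cells in the results below was not tested.

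Many promoters of G2/M genes carry 2 short elements near the start of transcription. One is the cell cycle genes homology region (CHR), bound by the MuvB core, which joins the DREAM repressor in resting cells and FOXM1 or B-MYB in dividing cells. The other is the CCAAT box, bound by NF-Y. Promoter windows from RefSeq (GRCh38.p14; 250 bases before to 50 after a start site) were found for 36 of the 43 genes. No window was printed or searched for AURKA, BUB3, TTK, BIRC5, TPX2, UBE2C and FOXM1. Where a gene had several windows, the one nearest the GENCODE canonical start was taken, and 34 of the 36 lay exactly on it. The start sites of the AURKB and CKAP2 windows lay 326 and 510 bases from it. Sequences of 4 genes are shown. The results turn on the first pair, INCENP and CDK1, which moved in opposite directions. PLK1 and CCNB1 show a window with both elements and one without the CHR letters searched. Capitals mark every TTTGAA or TTCGAA (CHR) and every CCAAT, on either strand, so that TTCAAA and ATTGG are the same elements read from the other strand. Each window reads 5′ to 3′ on the gene's strand, which is the plus strand in all 4: INCENP at chr11:62123761-62124060, CDK1 at chr10:60778228-60778527, PLK1 at chr16:23678639-23678938 and CCNB1 at chr5:69166900-69167199.
INCENP: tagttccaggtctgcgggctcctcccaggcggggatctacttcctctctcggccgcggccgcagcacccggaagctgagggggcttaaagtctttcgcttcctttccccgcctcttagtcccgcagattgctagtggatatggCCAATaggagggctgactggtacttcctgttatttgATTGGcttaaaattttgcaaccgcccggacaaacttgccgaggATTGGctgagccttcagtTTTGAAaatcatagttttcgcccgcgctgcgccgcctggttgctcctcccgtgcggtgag
CDK1: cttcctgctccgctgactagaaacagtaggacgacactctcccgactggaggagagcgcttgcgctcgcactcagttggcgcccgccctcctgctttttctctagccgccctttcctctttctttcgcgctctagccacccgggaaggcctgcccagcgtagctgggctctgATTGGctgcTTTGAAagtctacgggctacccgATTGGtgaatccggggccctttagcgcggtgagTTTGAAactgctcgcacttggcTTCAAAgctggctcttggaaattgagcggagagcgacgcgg
PLK1: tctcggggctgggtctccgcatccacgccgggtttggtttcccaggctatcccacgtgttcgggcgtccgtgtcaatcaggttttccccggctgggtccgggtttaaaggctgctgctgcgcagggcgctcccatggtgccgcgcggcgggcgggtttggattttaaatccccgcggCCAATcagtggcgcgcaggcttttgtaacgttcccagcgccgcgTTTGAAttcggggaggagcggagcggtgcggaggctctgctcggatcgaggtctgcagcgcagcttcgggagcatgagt
CCNB1: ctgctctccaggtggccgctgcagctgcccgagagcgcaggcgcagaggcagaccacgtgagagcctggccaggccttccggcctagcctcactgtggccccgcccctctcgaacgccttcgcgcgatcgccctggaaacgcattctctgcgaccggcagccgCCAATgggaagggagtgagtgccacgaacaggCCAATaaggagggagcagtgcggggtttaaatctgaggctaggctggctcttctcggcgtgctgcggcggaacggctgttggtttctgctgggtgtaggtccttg

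INCENP, CDK1 and PLK1 thus share both elements, while CCNB1 holds 2 CCAAT boxes and none of the CHR letters searched. In INCENP the CHR began at base -10 from the start site, taken as base 0, and CCAAT boxes began at -107, -71 and -28. In CDK1, CHR letters began at -69, -13 and 9, and CCAAT boxes at -78 and -46. A CHR was present in 27 of the 36 windows (75%), against 13% of the 15843 windows of protein-coding genes. A CCAAT box was present in 31 (86.1%), against 36.3%, and both elements in 25 (69.4%), against 5.42%. Only CENPE, CKAP2 and KIF2C had neither set of letters searched in their window, where 56.1% of all windows had neither. The canonical start of CKAP2 lay outside its window. The elements also lay at a preferred distance. Between bases -100 and -1 a CHR began in 50.0% of these windows against 3.82% of all windows, and a CCAAT box in 77.8% against 21.5%. These are matches of letters and not measured binding, and INCENP, which fell, had the same 2 elements as CDK1, which rose.

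**Figure D1:**
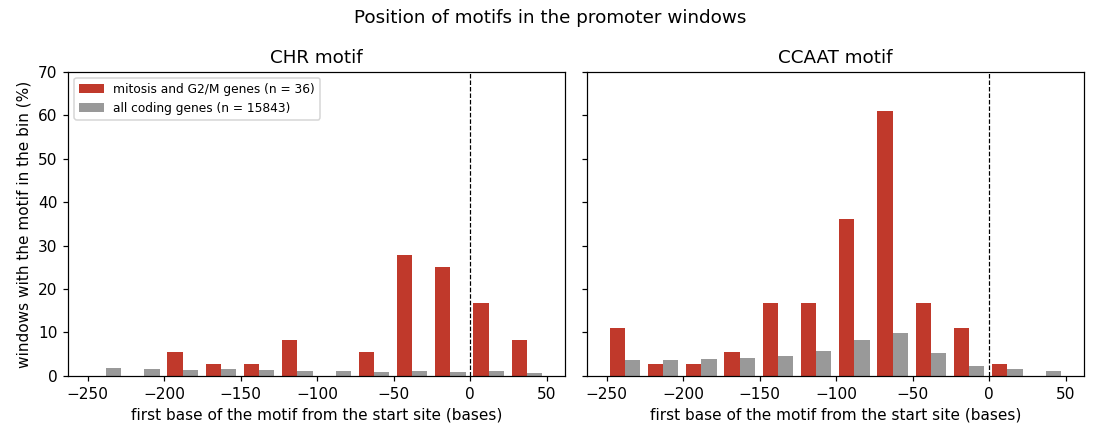
Share of promoter windows (%, vertical axis) in which a CHR (left) or CCAAT (right) match begins, by distance from the start site in bins of 25 bases; red, the 36 windows of mitosis and G2/M genes; grey, 15843 windows of protein-coding genes. CHR matches of the mitosis genes gather just before the start site, where 27.8% of windows hold one at -50 to -26, and CCAAT matches gather at -75 to -51, with 61.1% of windows.

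As a group the 43 genes took a steady share of each library. Of total reads they took 0.912% ± 0.0372 (mean ± SD over 3 cultures) before dTAGV-1, then 0.903% ± 0.0218 after 3h and 0.906% ± 0.00745 after 24h. Of T>C reads they took 1.036% ± 0.0243, 1.014% ± 0.0451 and 1.007% ± 0.0209 at the same times. At each step the differences between times were smaller than, or close to, the spread between cultures. TOP2A and CENPF weigh most in these shares, with means of 49010 and 29510 normalized total reads at 0h. A steady share thus says little about the genes with fewer reads. Tested gene by gene, with adjustment over all genes, 1 of the 43 was called in T>C reads at 3h (2.33%, against 1.79% of the 12037 genes tested) and 1 in T>C reads at 24h (against 4.98%). In total reads 1 was called at 3h, against 1.89% of the 11710 genes tested. At 24h 6 were called (14%), against 15% of all genes, 2 lower and 4 higher. A gene was called here at an adjusted p under 0.1 in the DESeq2 fit of all 9 samples, with differentiation batch and 1 surrogate variable as covariates. At an unadjusted p under 0.05 the counts at 3h and 24h were 2 and 6 of the 43 for T>C reads. Over all genes they were 882 and 1633 of 12037. For total reads the counts were 3 and 9 of the 43, against 962 and 2791 of 11710 over all genes.

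In the fit with batch and the surrogate variable, the intervals of these genes bounded the changes that were not called. The surrogate variable moved with time and culture, and intervals from fits without it were not examined. The median standard error (SE) of the 43 genes in T>C reads at 24h was 0.13 on the log2 scale, against 0.22 over all genes. The 95% interval of the log2 fold change lay wholly within 0.5 of 0 for 37 of 43 genes in T>C reads at 3h (86%, against 39.4% of all genes) and for 34 at 24h (79.1%, against 32.5%). For total reads this held for 42 genes at 3h (97.7%, against 69.5%) and for 40 at 24h (93%, against 57.5%). The 3 that were wider or farther out in total reads at 24h were INCENP, CDK1 and CENPA, of which CENPA had the fewest reads. The median absolute log2 fold change was 0.10 in total reads at 24h against 0.16 over all genes, beside a median SE of 0.09 against 0.13.

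**Figure D2:**
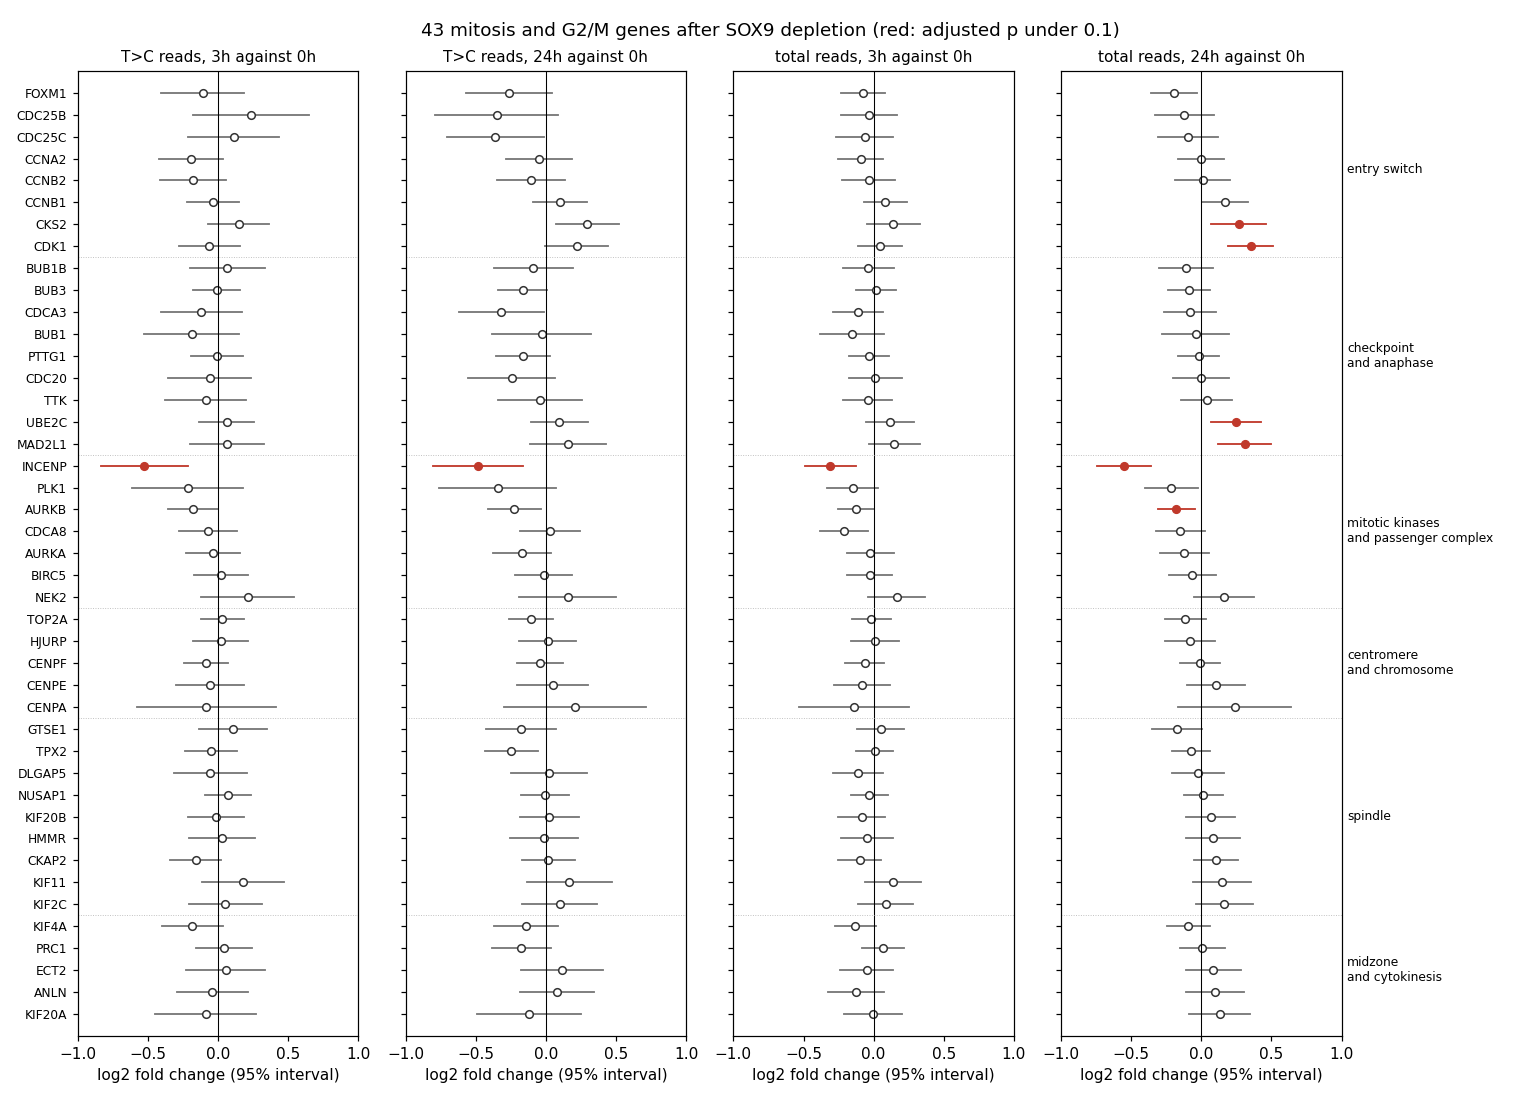
Log2 fold change (points) with 95% interval (lines) of 43 genes against 0h, for T>C reads at 3h and 24h and total reads at 3h and 24h, ordered by role from the top; red filled points have a DESeq2 adjusted p under 0.1. INCENP is red in all 4 panels and lies left of 0, while CDK1, CKS2, MAD2L1 and UBE2C lie right of 0 and AURKB left of 0 in total reads at 24h only.

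The chromosomal passenger complex held the clearest change. INCENP, its scaffold, had 1679, 1643 and 1445 normalized total reads at 0h in S9CC13_R6, S9CC47_R5 and S9CC47_R6 (the order used throughout), 1453, 1450 and 1119 at 3h, and 1101, 1082 and 842.8 at 24h. Every culture was lower at each later time, and the 24h values lay below all 0h and all 3h values. After 3h the log2 fold change was -0.31 (SE 0.09), with an adjusted p of 0.0619 in DESeq2, and after 24h it was -0.55 (SE 0.10), with an adjusted p of 1.14e-06. Newly made INCENP RNA gave 374.0, 316.8 and 298.6 T>C reads before dTAGV-1, 235.5, 266.8 and 207.7 at 3h, and 239.9, 238.8 and 187.4 at 24h. The drop in newly made RNA was thus present by 3h, and the 3h and 24h values overlapped. For T>C reads the log2 fold change was -0.53 (SE 0.16) after 3h, with an adjusted p of 0.0593 in DESeq2, and -0.48 (SE 0.16) after 24h, with an adjusted p of 0.0745. A conversion was carried by 21.0% of INCENP reads at 0h, by 16.7% at 3h and by 23.5% at 24h. Reads without a conversion, which are mostly older RNA, were lower at 24h by a log2 fold change of -0.57 (DESeq2 adjusted p = 3.27e-06). No protein-coding gene overlapped INCENP on the other strand. The calls at 3h were lost with the culture as a block, for T>C and for total reads, and no fit that left out 1 culture kept them. The T>C call at 24h was lost in 5 of 15 alternative fits, among them every fit that left out 1 culture. In those fits its log2 fold change ran from -0.53 without S9CC47_R6 to -0.41 without S9CC13_R6. Without S9CC13_R6 the total change at 24h was -0.56 (DESeq2 adjusted p = 0.363), a fit in which 154 of 11544 genes were called.

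The partners of INCENP moved less. AURKB, its kinase, had 8089, 8417 and 8091 total reads at 0h, 7789, 8029 and 7055 at 3h, and 7083, 7607 and 6471 at 24h. All 3 cultures were lower at each step and the 24h values lay below the 0h values. Its log2 change at 24h was -0.18 (SE 0.07; DESeq2, adjusted p = 0.0702), and in T>C reads it was -0.22 (SE 0.09, adjusted p = 0.22), which was not called. The AURKB call was lost in 10 of 14 alternative fits. BIRC5 (survivin) had 7312, 8086 and 7759 total reads at 0h and 8181, 6994 and 7463 at 24h, with cultures on both sides of their start and a log2 fold change of -0.07 (95% interval -0.23 to 0.10). T>C reads of BIRC5 went from 2940, 2818 and 2679 to 3262, 2481 and 2581. CDCA8 (borealin) was lower in all 3 cultures in total reads at both times but was not called. Of the kinases that act beside the complex, PLK1 had 3713, 4004 and 4506 total reads at 0h, 3259, 3896 and 3797 at 3h and 3483, 3819 and 3460 at 24h. Its 24h log2 fold change was -0.22 (95% interval -0.40 to -0.03, DESeq2 adjusted p = 0.142), which was not called. Its T>C reads were 1075, 969.8 and 1395 at 0h and 849.6, 1007 and 896.5 at 24h, with S9CC47_R5 higher at 24h and the other cultures lower. This T>C change of -0.34 was called with edgeR (adjusted p under 0.1), and with DESeq2 when S9CC47_R5 was left out. PLK1 overlaps ERN2 on the other strand, and whether the counting used strand was not given in the sources used here. AURKA, the kinase of spindle poles, was lower in 3 of 3 cultures at 24h in both kinds of reads without a call, and NEK2 gave no call either. In this group of 7 genes the median log2 fold change in total reads at 24h was -0.15, and 6 of 7 lay below 0. Over all genes 5784 of 11710 lay below 0, and only INCENP and AURKB of the group were called.

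The switch into mitosis moved the other way in part. CDK1, the kinase itself, had 2090, 2622 and 2189 total reads at 0h, 1888, 2296 and 2643 at 3h, and 3060, 2935 and 3653 at 24h. The 24h values lay above all earlier ones in every culture, while the 3h values lay on both sides of the 0h values. The log2 fold change at 24h was 0.35 (SE 0.08, DESeq2 adjusted p = 0.000527), and against 3h it was 0.31 (SE 0.09, adjusted p = 0.0172). That last count of 1 gene of 43 compares with 5.39% of all genes called between 3h and 24h. Newly made CDK1 RNA gave 654.3, 833.2 and 747.2 T>C reads before dTAGV-1, 508.0, 686.0 and 827.3 at 3h, and 998.4, 807.9 and 1160 at 24h. Here S9CC47_R5 ended below its start and the groups overlapped, with a 24h log2 fold change of 0.22 (95% interval -0.00 to 0.44, DESeq2 adjusted p = 0.381). Unconverted CDK1 reads rose at 24h by a log2 fold change of 0.41 (DESeq2 adjusted p = 0.000139). The difference between the T>C and the total result was not tested. The total change at 24h ranged from 0.08 without S9CC13_R6 (DESeq2 adjusted p = 1) to 0.52 without S9CC47_R6 (adjusted p = 0.0663).

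CKS2, the small adaptor that binds CDK1, had 853.0, 1179 and 849.1 total reads at 0h, 823.3, 1027 and 1167 at 3h, and 1137, 1238 and 1419 at 24h. All 3 cultures ended higher, but the lowest 24h value lay under the highest 0h value. Its log2 fold change was 0.27 (SE 0.10, DESeq2 adjusted p = 0.0677). This call was lost in 7 of 14 alternative fits, and without S9CC13_R6 the change turned to -0.058 (DESeq2 adjusted p = 1). For CKS2 in T>C reads, the 24h values of 723.4, 794.4 and 828.3 lay above all of 587.6, 679.6 and 530.9 at 0h, at a log2 change of 0.30 (DESeq2, adjusted p = 0.152), which was not called. This T>C change was called with edgeR, without the surrogate variable, with the culture as a block, without covariates and with only the 6 samples compared. It was not called with the block and the surrogate variable together, or with a culture left out. CCNB1, the cyclin that CDK1 binds in mitosis, had 3130, 3524 and 3047 total reads at 0h, 3295, 3386 and 3437 at 3h, and 3662, 3544 and 3991 at 24h. These groups did not overlap between 0h and 24h, yet S9CC47_R5 moved by only 0.01 on the log2 scale, and the fitted change of 0.17 (95% interval 0.01 to 0.33, DESeq2 adjusted p = 0.188) was not called. CCNB1 T>C reads went from 814.8, 940.8 and 844.0 to 929.2, 944.0 and 1040, a log2 fold change of 0.10 (95% interval -0.09 to 0.30). FOXM1, the activator of many genes in this list, had 2622, 2816 and 2691 total reads at 0h, 2319, 2842 and 2488 at 3h, and 2314, 2465 and 2456 at 24h. All 3 cultures were lower at 24h without overlap, and the log2 fold change of -0.20 (95% interval -0.36 to -0.03, DESeq2 adjusted p = 0.113) was just outside the threshold. FOXM1 T>C reads were 284.4, 322.9 and 292.5 at 0h and 263.6, 277.3 and 234.9 at 24h, again without overlap and without a call. FOXM1 overlaps ITFG2 and RHNO1 on the other strand. CCNA2, CCNB2, CDC25B and CDC25C, the other cyclins and the phosphatases, gave no call at any time. CDC25C in T>C reads was 274.0, 224.9 and 207.2 at 0h and 183.9, 175.5 and 166.7 at 24h, lower in all cultures with a log2 fold change of -0.36 (95% interval -0.70 to -0.02, DESeq2 adjusted p = 0.328). In total reads CDC25C had 1074, 1134 and 990.1 at 0h and 1078, 959.2 and 840.4 at 24h, so that these groups overlapped.

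**Figure D3:**
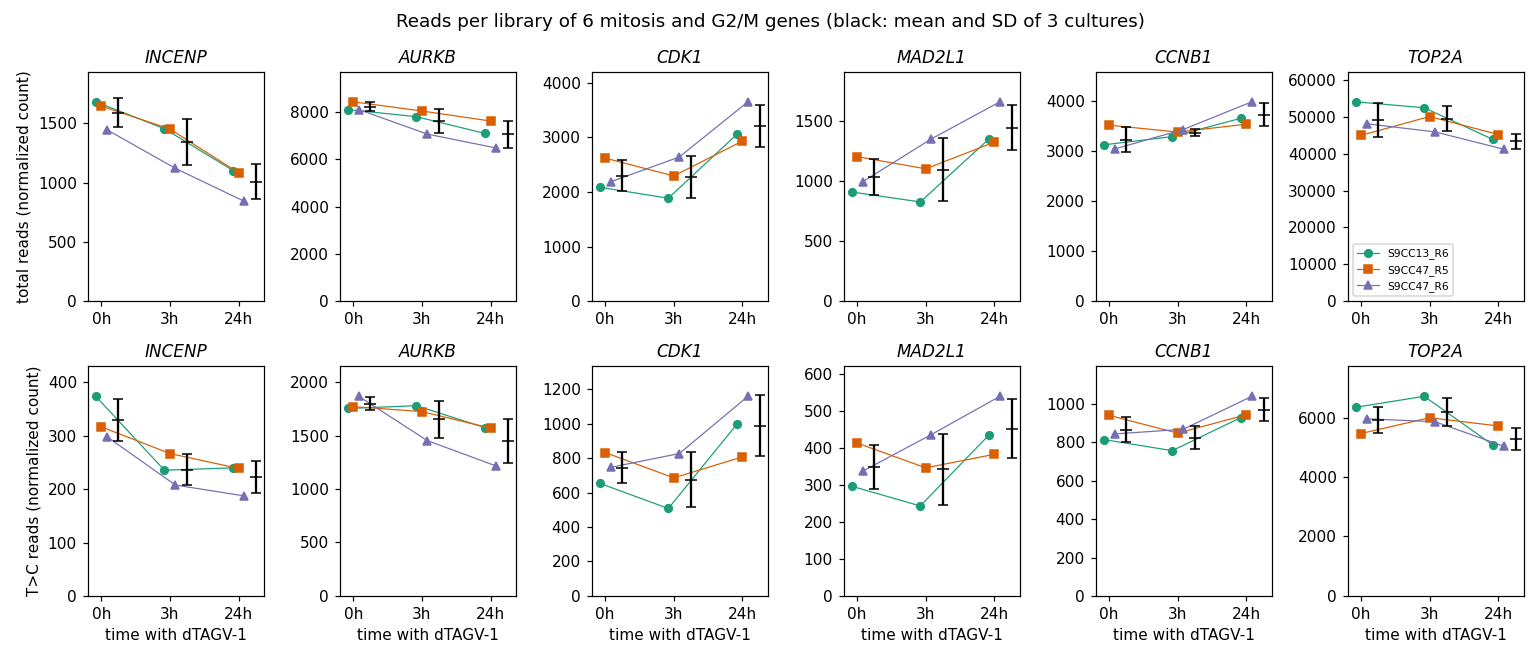
Normalized reads (vertical axes, from 0) of 6 genes in each of the 9 libraries by time with dTAGV-1, total reads above and T>C reads below; coloured symbols joined by lines are the 3 cultures and black marks are mean and SD (n = 3). INCENP ends below its start in every culture, CDK1 and MAD2L1 end above their start in every culture in total reads, CCNB1 ends higher in total reads, with S9CC47_R5 nearly level, and the 0h and 24h values of TOP2A overlap in total reads.

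Among genes of the checkpoint and of exit from mitosis, 2 of 9 were called in total reads at 24h, both higher, where 15% of all genes were called. MAD2L1, which holds CDC20 inactive until chromosomes are attached, had 909.6, 1203 and 994.0 total reads at 0h, 826.6, 1102 and 1350 at 3h, and 1350, 1324 and 1659 at 24h. The 24h values lay above all 0h values, and the fitted log2 change was 0.31 (SE 0.10, adjusted p = 0.0174 in DESeq2). The MAD2L1 call was lost in 5 of 14 alternative fits, among them the block with the surrogate variable (0.21, adjusted p = 0.379 in DESeq2). Its change ranged from 0.03 without S9CC13_R6 to 0.56 without S9CC47_R6. MAD2L1 T>C reads were 296.9, 413.6 and 337.4 at 0h and 435.2, 383.2 and 540.1 at 24h, where S9CC47_R5 ended lower and the others higher. UBE2C, which charges the anaphase-promoting complex with ubiquitin, had 2416, 3242 and 2786 total reads at 0h and 3563, 3326 and 3852 at 24h. It rose without overlap by 0.24 on the log2 scale (SE 0.09, adjusted p = 0.0618 in DESeq2), with only 0.04 in S9CC47_R5 against 0.56 and 0.47 in the other cultures. The UBE2C call was lost in 7 of 14 alternative fits, and without S9CC13_R6 the change turned to -0.05 (adjusted p = 1 in DESeq2). UBE2C T>C reads went from 883.5, 1131 and 1061 to 1121, 1107 and 1225, with no call. CDC20, which turns on the anaphase-promoting complex, had 3227, 3719 and 4159 total reads at 0h, 4174, 3941 and 3371 at 3h and 3547, 3821 and 3317 at 24h. The cultures did not agree for CDC20, and the fitted change at 24h was -0.00 (95% interval -0.20 to 0.20). CDC20 T>C reads were 385.5, 491.0 and 572.0 at 0h and 431.4, 433.0 and 360.8 at 24h (log2 fold change -0.24, 95% interval -0.55 to 0.07). BUB1, BUB1B, BUB3, TTK, PTTG1 and CDCA3 were not called at any time. The median of the 9 genes in total reads at 24h was -0.02. Unconverted reads gave 4 calls among the 43 genes at 24h, against 12.1% of all genes: INCENP was lower, and CDK1, MAD2L1 (log2 fold change 0.38) and UBE2C (0.33) were higher.

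Genes of the centromere, the spindle and cytokinesis gave no call against 0h, in 19 genes of 19 and in both kinds of reads. The shares of all genes called were 1.79% and 4.98% in T>C reads and 1.89% and 15% in total reads, at 3h and 24h. TOP2A, the topoisomerase that untangles chromosomes and the gene with the most reads of the 43, had 54010, 44930 and 48080 total reads at 0h, 52400, 50030 and 45860 at 3h, and 43840, 45150 and 41180 at 24h. These values overlapped, and the log2 fold change at 24h was -0.11 (95% interval -0.26 to 0.03). TOP2A T>C reads were 6347, 5465 and 5960 at 0h, 6717, 5996 and 5860 at 3h, and 5078, 5719 and 5036 at 24h. The 95% interval of that change ran from -0.26 to 0.05. CENPA, the histone variant that marks centromeres, was the gene with the fewest reads, at 108.0, 169.5 and 151.1 total reads at 0h and 160.4, 174.4 and 281.2 at 24h. All 3 cultures ended higher for CENPA, by 0.57, 0.04 and 0.89 on the log2 scale, and its fitted change of 0.24 (95% interval -0.17 to 0.64) could not be told from 0. The kinesins KIF11, KIF2C, KIF20A, KIF20B and KIF4A and the cytokinesis genes PRC1, ECT2 and ANLN had fitted changes in total reads at 24h between -0.09 and 0.16. These come from the fit with the surrogate variable. Log2 ratios within the 3 cultures reached farther for KIF20A (0.293, -0.076 and 0.907) and KIF2C (0.472, -0.135 and 0.544). The spindle genes had a median of 0.07 and the genes of the midzone and cytokinesis of 0.09.

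Agreement between cultures on the change from 0h was close to that of all genes. In T>C reads 9 of 43 genes (20.9%) moved the same way in all 3 cultures at 3h, against 26.3% of all genes, and 15 (34.9%) did so at 24h, against 38.5%. In total reads the counts were 10 (23.3%), against 23.6%, and 18 (41.9%), against 44.9%. Of the 18 genes, 10 were lower and 8 were higher. Between 3h and 24h the shares were higher than those of all genes, with 24 genes (55.8%, against 43.8%) in T>C reads and 27 (62.8%, against 54%) in total reads, a difference that was not tested. Values at 24h did not overlap those at 0h for 11 genes in total reads (25.6%), against 28.7% of all genes, and for 11 in T>C reads (25.6%), against 22.5%. INCENP had the lowest ratio of the 43 genes at 24h in each of the 3 cultures, in T>C and in total reads. At the top the cultures differed, with MAD2L1 (0.57), CENPE (0.40) and KIF20A (0.91) leading in total reads in S9CC13_R6, S9CC47_R5 and S9CC47_R6. S9CC47_R6 spread the widest, from -0.78 to 0.91 on the log2 scale, and S9CC47_R5 the least, from -0.60 to 0.40. The median of the 43 genes in total reads at 24h was -0.07, 0.04 and -0.01 in the 3 cultures, beside -0.01, 0.00 and -0.01 over all genes.

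**Figure D4:**
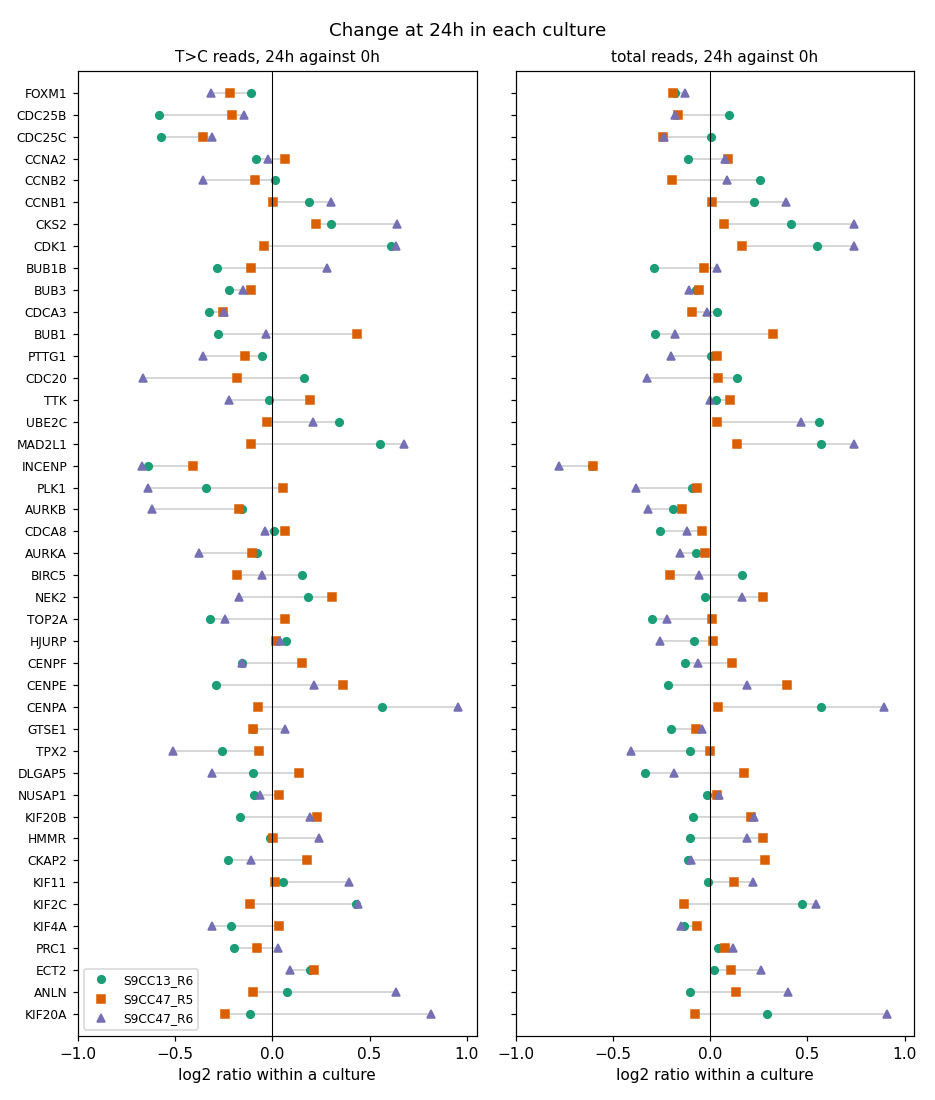
Log2 ratio of 24h to 0h within each culture (symbols) for 43 genes, T>C reads on the left and total reads on the right, in the same order as the plot of fold changes; grey lines join the lowest and highest culture. INCENP is left of 0 in all 3 cultures in both panels, while most genes have cultures on both sides of 0, and the orange squares of S9CC47_R5 lie nearer to 0 for CDK1, MAD2L1 and UBE2C.

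Cultures were also compared with each other over the 3 times, in a fit with time and culture. Between S9CC13_R6 and S9CC47_R6, 2 of 43 genes were called in total reads, against 3.38% of all genes. CENPA was lower in S9CC13_R6 by a log2 fold change of -0.70 (DESeq2 adjusted p = 0.0801) and INCENP was higher by 0.32 (adjusted p = 0.0906). Both of these calls were lost with edgeR. In T>C reads this pair gave 0 calls in DESeq2 and in edgeR, against 1.32% of all genes in DESeq2. An unadjusted p under 0.05 was reached by 5 of the 43, against 1064 of 12037 over all genes. S9CC47_R5 and S9CC47_R6 gave 0 calls in both tools, against 1.65% of all genes in total reads and 0.69% in T>C reads in DESeq2. Here 2 of the 43 had an unadjusted p under 0.05 in total reads, against 985 of 11710 over all genes. In T>C reads 1 did, against 720 of 12037. The first pair differs in clone within 1 differentiation batch and the second in batch within 1 clone, but with 1 culture on each side, clone or batch cannot be told apart from the single culture.

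The step from 3h to 24h in T>C reads gave 0 calls among the 43 genes in DESeq2 and in edgeR, against 1.14% of all genes in DESeq2. At this step 4 of the 43 had an unadjusted p under 0.05, against 980 of 12037 over all genes. With the culture as a block and no surrogate variable, CDC25C and CDK1 were called there, in a fit that called 530 of 12037 genes. The block also called AURKB, CKS2 and INCENP in T>C reads at 24h against 0h, among 722 genes of 12037. With both the block and the surrogate variable, CDC25C and CDK1 were lost and INCENP alone was called at 24h against 0h. For total reads between 3h and 24h the block gave 5 calls, CDK1, CENPA, INCENP, KIF20A and MAD2L1, among 1544 of 11710 genes, and the block with the surrogate variable gave 0. At 3h against 0h the block gave 0 calls in either kind of reads. The surrogate variable moved with time and culture, from -0.67 in the 3h library of S9CC13_R6 to 0.59 in the 24h library of S9CC47_R6 for total reads, and without it the CDK1 change at 24h was 0.49 and that of INCENP was -0.66. The share of all reads with a conversion moved in a like way, at 15.9% and 21.3% in these 2 libraries, and its part in the results was not tested.

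The share of a gene's reads with a conversion depends on how fast its RNA is replaced within the 2 h of labelling, and also on how many T bases lie in the counted 3′ end, which was not tested. At 0h the median of the 43 genes was 27.2%, against 27.1% over 11699 genes, and 22 genes lay above and 21 below that median. The range was wide, from 10.4% for CDC25B to 64.5% for CENPA. CENPA, CKS2 (63.9%), AURKA, HJURP and NUSAP1 lay above the upper quartile of all genes, 41.0%. At the low end were CDC25B, FOXM1 (11.2%), TOP2A (12.3%), CDC20 (13.2%) and DLGAP5 (13.8%). Genes of 1 role lay far apart, as FOXM1 and CKS2 of the entry switch show. Medians per library averaged 26.5% ± 1.51 (SD of 3 cultures) at 0h, 24.0% ± 2.76 after 3h and 27.6% ± 1.56 after 24h, beside 27.0%, 24.8% and 28.2% over all genes. The median of all genes thus dipped at 3h as well.

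**Figure D5:**
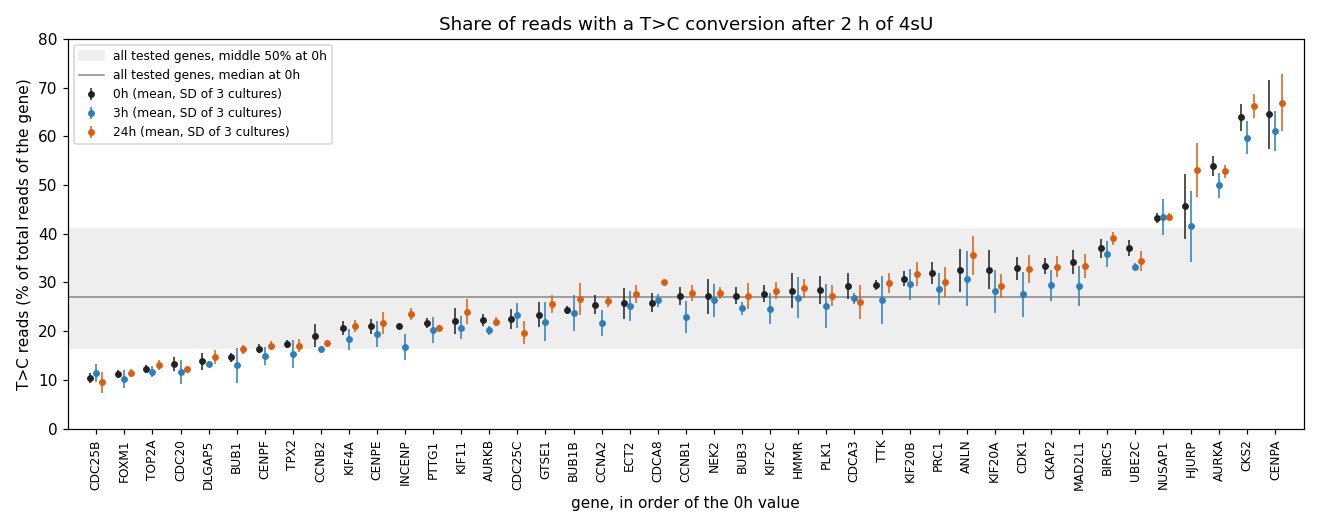
T>C reads as a percent of total reads for each of 43 genes (mean and SD of 3 cultures), at 0h in black, 3h in blue and 24h in orange, ordered by the 0h value; the grey band and line are the middle 50% and the median of all 11699 genes at 0h. Most genes lie inside the band at all 3 times, with CENPA and CKS2 above 60% at 0h and CDC25B, FOXM1, TOP2A, CDC20 and DLGAP5 below 14%.

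The 43 genes did not vary as 1 block across libraries. After culture means were removed, the correlation of each gene with the mean of the other members over the 9 libraries had a median of 0.14 in total reads, from -0.91 for TPX2 to 0.93 for ANLN, with 19 genes above 0.5 and 18 below 0. In T>C reads the median was 0.17, from -0.86 to 0.71. The mean deviation of the members per library ran only from -0.06 to 0.04 on the log2 scale in total reads and from -0.06 to 0.05 in T>C reads. Genes outside the list that followed this small profile most closely were OSTC (r = 0.99), PDIA6, CEP44, KITLG and CAPRIN1 in total reads and KLHL9 (r = 0.99), MTIF2, KLHL23, PRKCI and ZNF502 in T>C reads. These correlations describe 9 libraries that share cultures and depth, and carry no test.

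Other parts of the cell cycle machinery were read from lists of known genes. Their counts in total reads at 24h are to be read beside the 15% of all genes called there. Calls in these lists come from the DESeq2 fit of all 9 samples alone, and the alternative fits were not examined for them. Of 31 other kinetochore genes 2 were called (6.45%): DSN1, a subunit of the MIS12 complex, had a log2 change of -0.36 (SE 0.10, adjusted p = 0.00828 in DESeq2), and CENPK was higher by 0.33. DSN1 was also lower in T>C reads at 24h, by -0.55 (SE 0.13, DESeq2 adjusted p = 0.00193). Condensin and cohesin gave 2 of 18, or 11.1% (SMC1A, -0.23, and NCAPD3, 0.39), and the anaphase-promoting complex gave 1 of 17, or 5.88% (ANAPC13, 0.31). Of 23 regulators of these promoters (MuvB, DREAM, E2F and NF-Y), 2 were lower and 3 higher (21.7%). MYBL2 (B-MYB), the partner of MuvB before FOXM1, was lower by -0.29 (SE 0.08, DESeq2 adjusted p = 0.0073), TFDP2 by -0.27, and RB1, the retinoblastoma repressor, was higher by 0.55 (adjusted p = 0.0242). The medians of these 4 lists lay between -0.02 and 0.03 and were close to the 0.00 of all genes. The largest change of these lists in total reads at 24h lay among the brakes on the cycle. Of 16 brakes on the cycle 3 were called, all higher (18.8%, against 15% of all genes), with a list median of 0.21. CDKN1C, the kinase inhibitor p57, rose in T>C reads by 0.98 (SE 0.19) after 3h, with an adjusted p of 8.17e-05 in DESeq2, and by 1.70 (SE 0.20) after 24h, with an adjusted p of 2.53e-15, and in total reads by 0.76 and 1.52 (adjusted p = 5.31e-23). CCNG1 rose by 0.44 and GADD45A by 0.29 in total reads at 24h. Of 33 genes of G1/S and replication 4 rose and 2 fell in total reads at 24h (18.2%, against 15% of all genes). CCND2, a G1 cyclin, rose by 0.49 (SE 0.07, DESeq2 adjusted p = 5.92e-11), after 0.31 (adjusted p = 0.00302) in T>C reads at 3h. PCNA, the replication clamp, rose by 0.42 (adjusted p = 0.000189 in DESeq2) and MCM3, of the replicative helicase, fell by 0.25. The sizes of CDKN1C stand beside a largest absolute change of 0.55 (INCENP) in total reads at 24h among the 43 mitosis and G2/M genes.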

How the data were processed

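Per the labels and the methods of the study, RNA was alkylated, made into libraries of transcript 3′ ends, trimmed of adapters and poly(A), and mapped and counted with slamdunk. The authors deposited raw read counts per gene symbol, one table of total reads and one of T>C reads, with no normalization and no stated molecular identifiers, so PCR copies may be counted. The counting region and its use of strand were not given in the sources used here. Coordinates came from GENCODE on hg38.

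Groups and cultures came from the sample titles. Protein-coding genes that had 1 CPM or more in any 3 samples entered a DESeq2 (1.42.0, R 4.3.3) Wald test over all 9 samples with time, differentiation batch and 1 surrogate variable (sva 3.50.0). Independent filtering was off, and p-values were adjusted over all genes tested (Benjamini-Hochberg, called under 0.1). Cultures were compared with time as covariate. Unconverted reads are total minus T>C reads, fitted alike. The scripts were tested on simulated data. In the comparisons of times, the p-values measure the spread between libraries that remains after batch and the surrogate variable. These libraries come from 3 cultures, 2 of which share a differentiation batch. In the comparisons of cultures, each culture has 3 libraries, 1 at each time, so those p-values do not measure spread between cultures.

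Samples of 1 culture are the same clone and batch, which pairs them. Deviations of same-culture samples from their group means correlated at 0.12 on average in T>C reads (9 pairs, 0.03 to 0.25) and 0.28 in total reads (-0.05 to 0.60). Alternatives were edgeR (4.0.16) with TMM, other covariates, filters and thresholds, the culture as replicate block, and leaving out each culture.

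The genes, roles and lists were chosen with earlier results of these data known. Named with values per library were 8 genes fixed by name (CDK1, CCNB1, CDC20, PLK1, AURKB, TOP2A, FOXM1, BIRC5) and every called gene. CDC25C was added after its values were seen.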

Additional observations from a re-analysis of the deposited data

Results flagged for a closer look

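CDK1 was flagged because its change against 0h differed between the times: total reads were higher at 24h than at 3h by 0.31 on the log2 scale (DESeq2 adjusted p = 0.0172), where the changes from 0h were 0.05 for 3h and 0.35 for 24h. The 24h level lay above the 3h level in 3 of 3 cultures, by 0.70, 0.35 and 0.47. The call was lost with the replicate block and surrogate variable together (0.21), with only the 6 samples compared (0.27), without S9CC13_R6 (0.10) and without S9CC47_R5 (0.32).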

How the results depend on the processing

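INCENP stayed lower in all 14 alternative fits of total reads at 24h (log2 fold change -0.66 to -0.44) and kept its call in 13, the exception being the fit without S9CC13_R6. CDK1 stayed higher in all 14 (0.08 to 0.52) and kept its call in 12; only the 6 samples compared (0.26) and the fit without S9CC13_R6 lost it. Without S9CC13_R6, CKS2 and UBE2C turned below 0 in total reads at 24h (with a culture left out they ranged from -0.058 to 0.36 and from -0.05 to 0.48), and the calls of MAD2L1 (0.03) and AURKB were lost. The cause was not tested. The counts of called genes moved as follows. For T>C reads at 3h (1) the count was 0 without the surrogate variable, with the replicate block, with block and surrogate variable, without covariates, at an adjusted p under 0.05 and with only the 6 samples compared, and 0 to 0 when each culture was left out. For T>C reads at 24h (1) it was 3 with edgeR, 2 without the surrogate variable, 3 with the replicate block, 2 without covariates, 0 with a mean of 20 counts, 0 at an adjusted p under 0.05, 4 with only the 6 samples compared and 0 to 1 with a culture left out. The 1 gene called with a culture left out was PLK1, without S9CC47_R5, and not INCENP. For T>C reads between 3h and 24h (0) it was 2 without the surrogate variable, 2 with the replicate block, 2 without covariates and 0 to 1 with a culture left out. For total reads at 3h (1) it was 0 under the same settings as for T>C reads at 3h, and 0 to 0 with a culture left out. For total reads at 24h (6) it was 3 without the surrogate variable, 2 with block and surrogate variable, 3 without covariates, 3 at an adjusted p under 0.05, 1 with only the 6 samples compared and 0 to 2 with a culture left out. Between 3h and 24h (1) it was 2 without the surrogate variable, 5 with the replicate block, 0 with block and surrogate variable, 3 without covariates, 2 with all genes of 1 count, 0 with only the 6 samples compared and 0 to 5 with a culture left out. Between S9CC13_R6 and S9CC47_R6 in total reads (2) it was 0 with edgeR, 0 with all genes of 1 count and 0 at an adjusted p under 0.05. Over all genes in T>C reads at 3h, the settings named called 134 to 182, against 216 in the main fit. With a culture left out they called 59 to 91. At 24h the main fit called 599 of 12037. Calls there were 968 with edgeR, 616 without the surrogate variable, 722 with the block and 650 without covariates. The median T>C share of the genes, 26.0% over all libraries, was 21.6% when reads were pooled over genes. Leaving out a culture leaves 2 samples in each group, and the fit without S9CC13_R6 called 154 of 11544 genes in total reads at 24h, where all 9 samples called 1751 of 11710. T>C counts limit the low genes, as CENPA with about 99.8 T>C reads per library.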
